A study of Homo sapiens with 9 samples.

Results

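HepG2, an established human liver cancer cell line, was analysed here with 2 different short hairpins against the long non-coding RNA TUG1, and the second hairpin was set against the first. The comparison rests on 6 of the 9 libraries of the series, 3 labelled sh2-TUG1 and 3 labelled sh1-TUG1, and the 3 sh-Con libraries served only as a reference level. The cells of all 3 groups carried a lentiviral Tet-pLKO-Puro vector from which doxycycline (DOX) induced a hairpin, directed at TUG1 in sh1-TUG1 and sh2-TUG1 and a control hairpin in sh-Con, and were grown in low-glucose medium. The lines were stable lines in 1 cell type, and the 3 libraries of a group were described as technical replicates, so p-values measure only the spread between these libraries. Genes were taken from the deposited count tables of the 2 hairpins, joined on the gene identifier. All 12854 genes present in both tables were tested, of 13017 in the sh1-TUG1 table and 12953 in the sh2-TUG1 table. TUG1 itself was not analysed here, so the labels could not be checked against their target in these libraries.

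Cells that divide switch on the genes of mitosis together, and many of these genes carry a short promoter element, the cell cycle genes homology region (CHR), through which they are silenced outside division. Hepatocytes and HepG2 cells secrete plasma proteins in bulk, and these proteins are folded in the endoplasmic reticulum (ER) by chaperones such as BiP and then moved to the Golgi in coated vesicles. When folding falls behind, the sensors IRE1, PERK and ATF6 start the unfolded protein response (UPR), and the factors XBP1, ATF6 and ATF4 raise chaperones, transport proteins and amino acid supply.

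The 9 libraries held 33049003 to 39387125 counts over these genes. Over all genes, the SD of log2 ratios between replicates of a group was 0.294 to 0.344, against 0.469 to 0.506 between libraries of different hairpins. The first principal component, 44.6% of the variance, placed the sh2-TUG1 libraries at 29.3 to 32.4 and the other 6 below −7, the second (18.4%) placed the sh1-TUG1 libraries at −20.8 to −19.7, and the third (8.5%) set sh2-TUG1 replicate 3 apart at 19.2 from its replicates at −10.0 and −8.06 and sh-Con replicate 1 at 12.4 from its replicates at −7.66 and −6.75. All 15 listed HepG2 and hepatocyte markers were measured, and their summed level was 45350.2 to 47328 CPM (counts scaled to a common library total after TMM normalization) in sh-Con, 50595 to 51983 CPM in sh1-TUG1 and 53907 to 56401 CPM in sh2-TUG1. ALB, which encodes albumin and is described below, made up much of this sum. By member, 8 of the 15 were lower and 2 higher with the second hairpin at an edgeR adjusted p under 0.05, with a median log2(fold change) of −0.18, so the sum and the members differed in direction. Of 15 blood and immune markers only LYZ and CD68 were among the genes tested, both as lower DEGs, and their summed level was 926 to 1138 CPM in sh-Con, 1155 to 1243 CPM in sh1-TUG1 and 713 to 778 CPM in sh2-TUG1. The endothelial list had 4 of 10 members, with sums of 34.8 to 38.1, 35.9 to 38.5 and 29.96 to 31.3 CPM in the same order, and the HEK293 packaging-cell list 2 of 15, with 105 to 127, 96.0 to 115 and 105 to 126 CPM. The mesenchymal list had 9 of 20, with 11570.1 to 12632, 11870.3 to 12347 and 13619 to 14323 CPM, most of it FN1 (fibronectin). The defining markers PTPRC of blood and CDH5 of endothelium were not among the genes tested, PECAM1 and VWF were at 7.06 to 9.51 CPM and 1.16 to 5.09 CPM over the 9 libraries, and the part of other cells in the results was not tested.

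The second hairpin differed from the first mainly by lower genes. Of the 12854 genes, 1033 were lower with the second hairpin (8.04% of those tested) and 329 were higher (2.56%), counting as differentially expressed genes (DEGs) those with an adjusted p under 0.05 and more than a 1.5-fold change (edgeR quasi-likelihood test, Benjamini–Hochberg). The lower genes made up 75.8% of the 1362 DEGs. Without the limit on size the directions were nearly even, with 2786 genes lower (21.7%) and 2702 higher (21.0%). Scaling by library size alone in place of TMM moved this split to 64.9% lower, with 3532 lower and 1912 higher genes, and the median of all genes to −0.065 on the log2 scale. A stricter test of the fold change itself against 1.5 left 263 lower and 67 higher genes. Without sh2-TUG1 replicate 3, which stood apart on the third component, 1024 genes were lower and 301 higher DEGs, and without sh-Con replicate 1, which also did, 1046 were lower and 329 higher. The ranges of the hairpins did not overlap for 7119 of all genes (55.4%) and for 1329 of the DEGs, so a lack of overlap at a gene below is the usual case. In such bulk libraries a lower level cannot be divided into fewer cells with the transcript and less transcript per cell.

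The size of the difference went with the level of the gene. In the quintile of genes with the lowest level (quintiles by mean CPM), 0.646 to 6.09 CPM, the median log2(fold change) was −0.17 and 20.0% of genes were lower DEGs, against 4.71% higher. In the quintile with the highest level, above 82.4 CPM, the median was 0.074, with 1.98% lower and 2.33% higher DEGs. Against the mean of sh-Con, the lowest quintile had medians of −0.020, −0.0044 and 0.020 in the 3 sh1-TUG1 libraries and of −0.20, −0.21 and −0.15 in the 3 sh2-TUG1 libraries, so this shift was in sh2-TUG1. By GC content of the longest transcript, the medians ran from 0.085 in the quintile with the lowest GC content to −0.070 in the quintile with the highest, and by gene span they stayed between −0.051 and 0.022. Against sh-Con, the lowest and highest GC quintiles had medians of −0.056 and 0.056 in sh1-TUG1 and of 0.017 and −0.014 in sh2-TUG1. Single control libraries varied as much, with −0.069 and 0.070 in sh-Con replicate 1 against the sh-Con mean. Removing the trend on level by an offset, an alternative chosen after seeing the data, left 800 lower and 455 higher DEGs (63.7% lower), so the excess of lower DEGs was smaller but had the same direction. The typical level of each gene group is therefore given beside its values below.

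**Figure D1:**
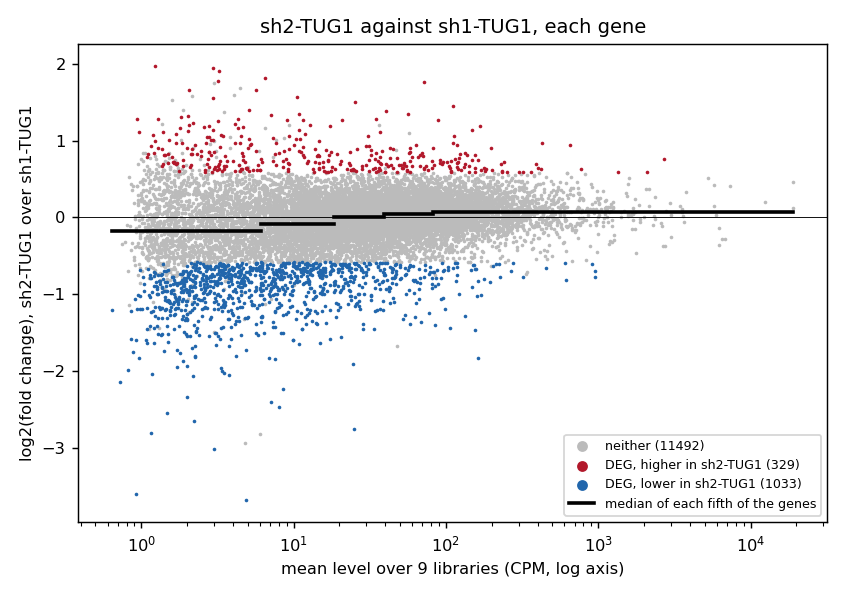
Each point is a gene, with its mean level over the 9 libraries (CPM, log axis) against the log2(fold change) of sh2-TUG1 over sh1-TUG1, coloured where it is a DEG. The black bars are the medians of the 5 level classes, which run from −0.17 at the left to 0.074 at the right, and the 1033 lower DEGs lie mostly at the left.

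Setting each DEG beside the sh-Con libraries divided them by the hairpin that left the control range. Among the 1033 lower DEGs, the sh-Con range overlapped that of sh1-TUG1 alone for 437 genes, so that sh2-TUG1 lay below both, and that of sh2-TUG1 alone for 117 genes, so that sh1-TUG1 lay above both. For 206 lower DEGs all sh-Con libraries lay between the hairpins, above sh2-TUG1 and below sh1-TUG1. For 183 lower DEGs the control lay above both hairpins, and for 8 below both. Among the 329 higher DEGs the control overlapped sh1-TUG1 alone for 121 and sh2-TUG1 alone for 43, lay between the hairpins for 72, below both for 73 and above both for 2. In 28 lower and 5 higher DEGs the ranges of the hairpins themselves overlapped, and the rest overlapped the control with both. These positions are a description, since both hairpins are read against the same control libraries. They were counted among DEGs alone, so no share over all genes stands beside them.

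The largest falls in sh2-TUG1 included HP, DIO1 and AGXT, all active in liver. HP, which encodes haptoglobin, the plasma protein that binds free haemoglobin (chr16:72054592-72061055, GRCh38), had 48.8, 48.8 and 50.8 CPM in sh1-TUG1, 7.26, 6.29 and 8.42 CPM in sh2-TUG1, and 20.7, 17.8 and 16.1 CPM in sh-Con. The 3 groups did not overlap, with sh1-TUG1 above and sh2-TUG1 below the control (log2(fold change) −2.75, SE 0.11, edgeR adjusted p = 5.34e-08). Its neighbour and close paralog HPR followed with 14.9, 15.9 and 14.9 CPM in sh1-TUG1, 1.72, 3.77 and 2.75 CPM in sh2-TUG1, and 5.89, 5.26 and 6.59 CPM in sh-Con, in the same order (log2(fold change) −2.47, SE 0.21, edgeR adjusted p = 3.82e-06), and reads shared by the pair cannot be assigned with certainty. DIO1, the deiodinase that activates thyroid hormone (chr1:53891239-53911086), had 13.6, 14.7 and 12.7 CPM in sh1-TUG1, 2.71, 3.11 and 2.88 CPM in sh2-TUG1, and 9.18, 10.7 and 7.07 CPM in sh-Con. Here too the control lay between the hairpins (log2(fold change) −2.23, SE 0.16, edgeR adjusted p = 9.20e-07). AGXT, which detoxifies glyoxylate in liver peroxisomes, stood at 5.95, 4.302 and 5.31 CPM in sh1-TUG1 and 1.23, 1.35 and 1.399 CPM in sh2-TUG1, without overlap (log2(fold change) −1.96, SE 0.21, edgeR adjusted p = 1.98e-05). DPEP1, a dipeptidase of the cell surface, had 5.89, 7.61 and 5.65 CPM in sh1-TUG1 and 0.984, 1.23 and 2.36 CPM in sh2-TUG1, and its groups did not overlap either (log2(fold change) −2.05, SE 0.27, edgeR adjusted p = 0.000115).

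DMGDH, the dimethylglycine dehydrogenase of choline breakdown (chr5:78997606-79236038), had 3.72, 4.63 and 4.54 CPM in sh1-TUG1, 0.585, 0.509 and 0.492 CPM in sh2-TUG1, and 4.48, 3.61 and 4.55 CPM in sh-Con, so only sh2-TUG1 was separate from the control (log2(fold change) −3.02, SE 0.21, edgeR adjusted p = 9.27e-07). TUBB1, a beta-tubulin best known from platelets, was lower in both hairpins than in the control and lowest in sh2-TUG1, with 6.53, 6.95 and 6.77 CPM in sh1-TUG1, 0.7998, 1.77 and 1.24 CPM in sh2-TUG1, and 14.03, 12.8 and 12.9 CPM in sh-Con (log2(fold change) −2.40, SE 0.21, edgeR adjusted p = 3.92e-06). FXYD3, a regulator of the sodium pump, had the same order, at 3.66 to 3.94 CPM in sh-Con, 2.11 to 2.51 CPM in sh1-TUG1 and 0.359 to 0.708 CPM in sh2-TUG1, with a log2(fold change) between the hairpins of −2.06 (edgeR adjusted p = 5.17e-05). CES3, a carboxylesterase, fell with −2.02 (edgeR adjusted p = 0.000236), and its sh1-TUG1 values of 3.28 to 6.03 CPM overlapped the control. MAB21L4 had 2.78 to 3.94 CPM in sh1-TUG1 and 0.523 to 0.959 CPM in sh2-TUG1 (log2(fold change) −2.33 with edgeR adjusted p = 5.65e-05). AC104452.1 and CAPN3 had log2(fold change) values of −3.68 (edgeR adjusted p = 0.00188) and −2.65 (edgeR adjusted p = 0.00151), but both are uncertain because they overlap other genes on the same strand, AMT and NICN1 in the first case and AC012651.1 in the second. The sh1-TUG1 values of AC104452.1, 18.1, 3.89 and 3.02 CPM, were spread widely.

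The largest rises were smaller and served more mixed roles. AQP3, a channel for water and glycerol (chr9:33441154-33447633), had 64.1, 71.4 and 63.1 CPM in sh1-TUG1, 176, 181 and 188 CPM in sh2-TUG1, and 90.7, 82.8 and 78.7 CPM in sh-Con. All 3 groups were separate, with sh1-TUG1 lowest and sh2-TUG1 highest (log2(fold change) 1.45, SE 0.064, edgeR adjusted p = 7.65e-08). PLEKHH2 had the same order at 24.4, 22.2 and 23.9 CPM in sh1-TUG1, 64.7, 58.2 and 62.2 CPM in sh2-TUG1, and 41.03, 34.03 and 33.7 CPM in sh-Con (log2(fold change) 1.39, SE 0.080, edgeR adjusted p = 3.07e-07). RGCC, a regulator of cell cycle progression, had 5.95, 5.85 and 5.52 CPM in sh1-TUG1, 17.5, 17.2 and 16.5 CPM in sh2-TUG1, and 8.69, 8.37 and 9.24 CPM in sh-Con, again with the control between (log2(fold change) 1.56, SE 0.092, edgeR adjusted p = 3.62e-07). SLC6A12, a betaine and GABA transporter, was higher in both hairpins than in the control and highest in sh2-TUG1, at 39.6, 41.9 and 52.7 CPM in sh1-TUG1, 117, 113 and 112 CPM in sh2-TUG1, and 7.38, 7.92 and 18.2 CPM in sh-Con (log2(fold change) 1.35, SE 0.23, edgeR adjusted p = 0.000711). PTHLH, which encodes parathyroid hormone-related protein, had 1.58, 2.18 and 1.17 CPM in sh1-TUG1 and 5.69, 5.69 and 5.47 CPM in sh2-TUG1, and only sh2-TUG1 left the control range of 1.804 to 2.76 CPM (log2(fold change) 1.77, SE 0.24, edgeR adjusted p = 0.000114).

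The other rises named were of genes with varied roles. NLRC4, an inflammasome sensor, had 3.02, 3.59 and 1.88 CPM in sh1-TUG1 and 6.61, 7.72 and 7.96 CPM in sh2-TUG1, without overlap (log2(fold change) 1.40, SE 0.22, edgeR adjusted p = 0.000378). CLIP4, a microtubule-binding protein, rose with a log2(fold change) of 1.90 (edgeR adjusted p = 0.00021) and THSD4, a matrix protein, with 1.66 (edgeR adjusted p = 2.02e-05). SH3BGR had 0.703, 1.08 and 0.769 CPM in sh1-TUG1 and 2.77, 2.13 and 3.14 CPM in sh2-TUG1, and here sh1-TUG1 was the group that left the control range of 2.38 to 3.16 CPM (log2(fold change) 1.65 with edgeR adjusted p = 0.000283). IQCJ-SCHIP1 had 1.33 (edgeR adjusted p = 0.003). AL031281.2, at 1.77 (edgeR adjusted p = 0.000895), overlaps CDC42 on the same strand and is uncertain.

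**Figure D2:**
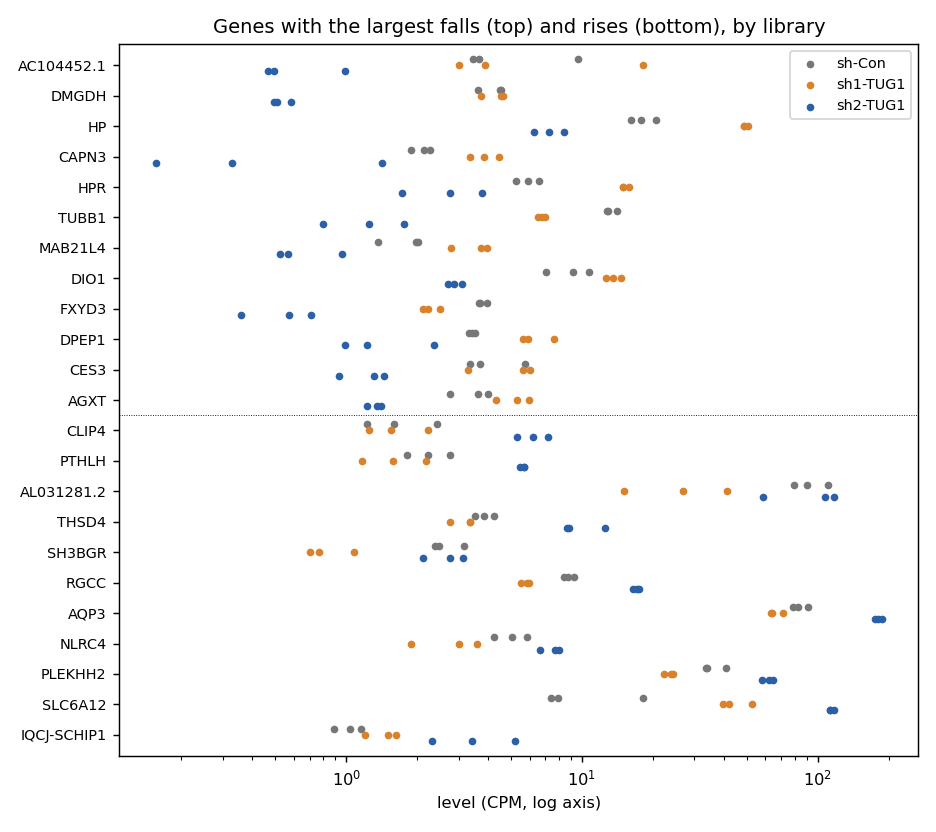
Levels (CPM, log axis) of the 12 genes with the largest falls (top) and of 11 with the largest rises (bottom) in sh2-TUG1 against sh1-TUG1, with a point for each of the 9 libraries coloured by group. The genes were chosen among those with no overlap between the hairpins, and for HP, DIO1, AQP3 and PLEKHH2 the grey sh-Con points lie between the hairpins.

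Some named genes share their position with a tested gene on the opposite strand, and the sources used here do not say whether strand was used in counting, so reads of the partners cannot be told apart. They are HP with TXNL4B, HPR with TXNL4B, DMGDH with BHMT and BHMT2, TUBB1 with ATP5F1E, KIF4A with PDZD11, CDC25C with FAM53C, GINS2 with GSE1, CCNE2 with INTS8 and NDUFAF6, DNAJB9 with PNPLA8 and THAP5, CRELD2 with ALG12, PDIA6 with ATP6V1C2, MCFD2 with TTC7A, COPG2 with MEST, C1S with LPCAT3, PLTP with CTSA, POR with TMEM120A, SLC51A with PCYT1A, SLC27A5 with ZNF446, SLC39A5 with ANKRD52, LAMA5 with ADRM1, MMP11 with CHCHD10, ADAM19 with CYFIP2, ADAMTS13 with REXO4, PHF1 with CUTA, NSD3 with DDHD2, ZNF839 with CINP, ZNF664 with CCDC92.

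To see which functions separate the hairpins, 56 lists of genes for pathways and protein classes, 2468 genes in all, were described by their counts and medians. The lists were chosen with earlier results of these data known, and none was tested as a set. Each count of members below stands against the shares of all genes. These were 21.7% lower and 21.0% higher at an adjusted p under 0.05, and 8.04% lower and 2.56% higher as DEGs. The median log2(fold change) was below 0 in 34 lists and above 0 in 22, where that of all 12854 genes was −0.00067. The lowest medians belonged to mitosis, zinc handling and 6 lists of liver secretion and metabolism. The highest belonged to ER folding, histones, NRF2 targets with AKR1 enzymes, immediate-early genes, vesicle transport, ATF4 targets and chromatin.

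**Figure D3:**
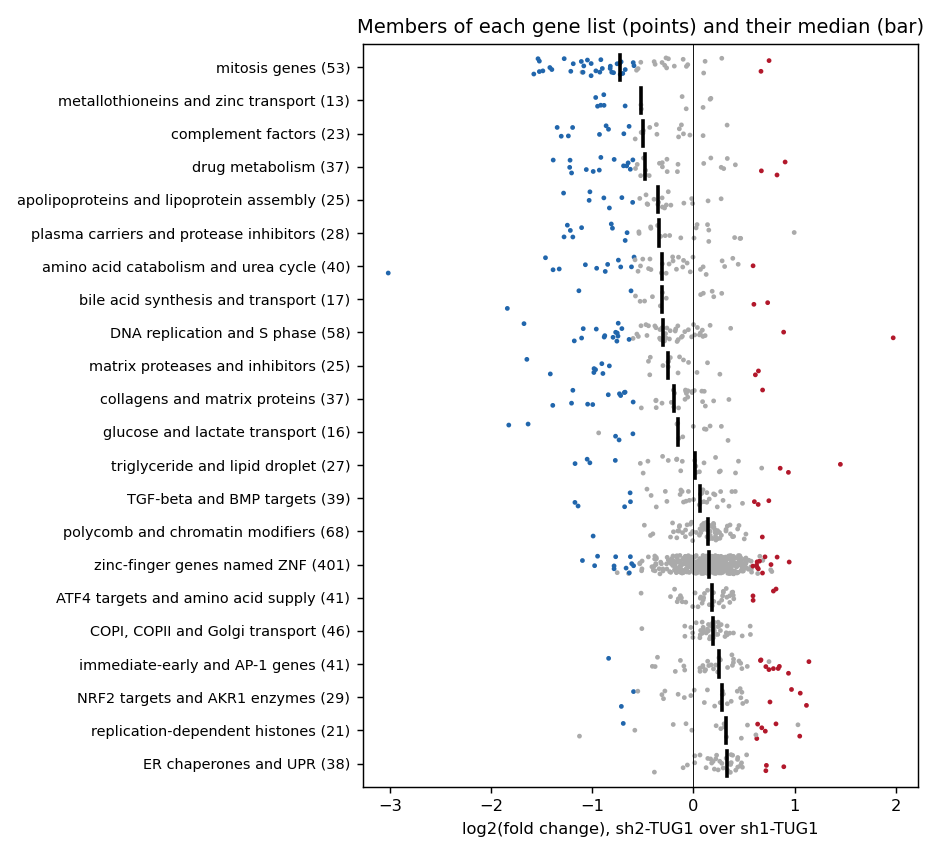
Members of each gene list described at length (points, number of members in brackets) by their log2(fold change) of sh2-TUG1 over sh1-TUG1, with the list's median as a bar and DEGs coloured. Medians run from −0.73 for mitosis genes to 0.33 for ER chaperones, and the DEGs of the upper 12 lists lie mostly to the left of 0.

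Genes of mitosis were lower in sh2-TUG1. Of 53 members tested, 38 were lower and 3 higher at an adjusted p under 0.05, and 32 were lower and 2 higher as DEGs, which is 60.4% of the list against 8.04% of all genes. The median log2(fold change) was −0.73. TOP2A, the topoisomerase that untangles chromosomes (chr17:40388516-40417950), had 23.02, 24.1 and 26.7 CPM in sh1-TUG1, 7.91, 7.39 and 9.36 CPM in sh2-TUG1, and 18.98, 17.9 and 20.5 CPM in sh-Con. The groups did not overlap, and sh1-TUG1 was the highest of the 3 (log2(fold change) −1.58, SE 0.10, edgeR adjusted p = 5.41e-07). KIF4A, a motor that shapes the spindle, had 5.21, 5.102 and 5.76 CPM in sh1-TUG1, 1.94, 1.796 and 2.25 CPM in sh2-TUG1, and 4.82, 3.55 and 4.39 CPM in sh-Con, in the same order (log2(fold change) −1.42, SE 0.18, edgeR adjusted p = 6.71e-05). CDC25C, the phosphatase that starts mitosis, had 3.13, 2.98 and 3.21 CPM in sh1-TUG1 and 1.1998, 1.11 and 0.907 CPM in sh2-TUG1, without overlap (log2(fold change) −1.54, SE 0.25, edgeR adjusted p = 0.000504). MKI67, the proliferation marker Ki-67, had 6.18, 8.604 and 10.3 CPM in sh1-TUG1 and 2.95, 2.69 and 3.06 CPM in sh2-TUG1. AURKB, a kinase of chromosome segregation, had 3.43, 2.84 and 3.69 CPM in sh1-TUG1 and 0.892, 1.26 and 1.296 CPM in sh2-TUG1. UBE2C, a ubiquitin-conjugating enzyme of mitotic exit, had 2.8995, 3.03 and 3.48 CPM in sh1-TUG1 and 0.923, 1.197 and 1.22 CPM in sh2-TUG1. The hairpins did not overlap in any of the 3, whose log2(fold change) was −1.52 (edgeR adjusted p = 6.03e-05), −1.52 (edgeR adjusted p = 0.000188) and −1.49 (edgeR adjusted p = 0.000206). The member with the most reads, the checkpoint gene BUB3, had 98.5 to 99.2 CPM in sh1-TUG1 and 93.9 to 96.7 CPM in sh2-TUG1 (log2(fold change) −0.057 with edgeR adjusted p = 0.347).

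Against the control mean, the list's median was 0.16, 0.19 and 0.33 in the 3 sh1-TUG1 libraries and −0.53, −0.47 and −0.41 in the 3 sh2-TUG1 libraries, on opposite sides of the sh-Con libraries, which had −0.039, −0.039 and 0.080. Mitosis genes were low in these cells, with a median level of 4.004 CPM, in the range where all genes had a median of −0.17. With the trend on level removed the list's median relative to all genes was −0.59. Without sh2-TUG1 replicate 3 it was −0.79.

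Promoter sequence showed what many of these genes share. The CHR core TTTGAA, searched on both strands in the 250 bases before each RefSeq gene start, was present for 25 of 46 mitosis genes with a promoter sequence (54.3%), for 2 of 48 genes of DNA replication (4.17%), and for 1109 of all 9354 tested genes with one (11.9%). Complement factors, a list also lower in sh2-TUG1, held it in 6 of 17 genes (35.3%), so it was not particular to mitosis genes. In ER chaperones, vesicle transport, ATF4 targets and drug metabolism, 7.69% to 11.5% of genes held it. A gene with several listed starts counted once if any start held the element. Windows of 30 bases around it are shown for the 5 mitosis genes with the deepest falls among those that hold it, as the letters the members have in common. The windows are from RefSeq on GRCh38.p14, 5′ to 3′ along the gene, with the core in capitals.
TOP2A, chr17:40418073-40418102, minus strand: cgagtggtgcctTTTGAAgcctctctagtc
CDC25C, chr5:138331817-138331846, minus strand: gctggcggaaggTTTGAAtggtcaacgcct
MKI67, chr10:128126453-128126482, minus strand: ttagcgccagaaTTTGAAtcttcgttttcg
KIF4A, chrX:70290058-70290087, plus strand: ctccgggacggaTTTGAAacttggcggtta
DLGAP5, chr14:55191706-55191735, minus strand: tctcacccatctTTTGAActggcccttcac

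DLGAP5, a spindle protein, had 2.72, 2.896 and 3.61 CPM in sh1-TUG1 and 0.831, 1.14 and 1.503 CPM in sh2-TUG1 and a log2(fold change) of −1.40 (edgeR adjusted p = 0.000763). These matches are a description of the letters, and binding there was not measured.

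In the list of DNA replication and S phase 48.3% of members passed as lower, against 21.7% of all genes. In the histone list 42.9% passed as higher, against 21.0%. Of 58 replication genes, 28 were lower and 3 higher at an adjusted p under 0.05, and 15 were lower and 2 higher as DEGs, with a median of −0.30 at a median level of 7.699 CPM. UHRF1, which keeps DNA methylated through replication, had 3.92, 4.96 and 6.29 CPM in sh1-TUG1 and 1.69, 1.56 and 1.503 CPM in sh2-TUG1, without overlap (log2(fold change) −1.68, SE 0.21, edgeR adjusted p = 6.21e-05). RRM2, the ribonucleotide reductase subunit, had 7.703, 8.19 and 11.9 CPM in sh1-TUG1, 3.599, 5.54 and 5.11 CPM in sh2-TUG1, and 12.8, 12.7 and 12.1 CPM in sh-Con, below the control in both hairpins (log2(fold change) −0.96, SE 0.19, edgeR adjusted p = 0.00152). GINS2 and RAD51AP1, of the replication fork and of DNA repair, had log2(fold change) values of −1.18 (edgeR adjusted p = 0.00217) and −1.11 (edgeR adjusted p = 0.01). CCNE2, the cyclin that opens S phase, went the other way, with 0.234, 0.662 and 0.478 CPM in sh1-TUG1, 1.78, 1.17 and 2.49 CPM in sh2-TUG1, and 1.403, 1.72 and 1.07 CPM in sh-Con. Here sh1-TUG1 lay below the control range (log2(fold change) 1.98, SE 0.38, edgeR adjusted p = 0.00152). RFC1, the member with the most reads, rose by 0.37 (edgeR adjusted p = 9.08e-05).

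Of 21 replication-dependent histone genes, 2 were lower and 9 higher at an adjusted p under 0.05, and 1 was lower and 6 higher as DEGs, with a median of 0.33. HIST1H2AC had 124, 121 and 129 CPM in sh1-TUG1, 203, 206 and 188 CPM in sh2-TUG1, and 98.8, 103 and 103 CPM in sh-Con, so that both hairpins were above the control and sh2-TUG1 highest (log2(fold change) 0.68, SE 0.047, edgeR adjusted p = 9.09e-07). HIST1H2BG, HIST1H2BC, HIST1H2BD and HIST1H1C rose by log2(fold change) 1.05, 0.82, 0.71 and 0.63, and HIST1H3H fell with −0.69. The histone list had library medians of 0.25, 0.25 and 0.34 in sh1-TUG1 and 0.59, 0.56 and 0.59 in sh2-TUG1 over the control, and without sh1-TUG1 replicate 1 the median between the hairpins was 0.51 relative to all genes. Histone genes are near-identical copies whose reads cannot always be assigned, and most of their transcripts lack a poly(A) tail, so the level in mRNA libraries can depend on how the libraries were made.

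Chaperones of the ER and the UPR were higher in sh2-TUG1, with small changes in nearly the whole list. Of 38 members, 1 was lower and 31 higher at an adjusted p under 0.05, and 0 were lower and 3 higher as DEGs. The median was 0.33. HSPA5, which encodes BiP, the main ER chaperone (chr9:125234853-125241330), had 4853, 4822 and 4708 CPM in sh1-TUG1, 6358, 6474 and 6384 CPM in sh2-TUG1, and 6279, 6285 and 5999 CPM in sh-Con. All 3 groups were separate, with sh1-TUG1 lowest and sh2-TUG1 just above the control (log2(fold change) 0.42, SE 0.033, edgeR adjusted p = 1.93e-06). DNAJB9, a co-chaperone of BiP, had 187, 177 and 175 CPM in sh1-TUG1, 299, 300.4 and 288 CPM in sh2-TUG1, and 227, 259 and 245 CPM in sh-Con, with the control between the hairpins (log2(fold change) 0.72, SE 0.051, edgeR adjusted p = 9.31e-07). FKBP14, a folding enzyme for collagen, had 32.7, 31.5 and 33.1 CPM in sh1-TUG1, 60.9, 58.8 and 61.01 CPM in sh2-TUG1, and 37.6, 44.3 and 45.5 CPM in sh-Con, in the same order (log2(fold change) 0.89, SE 0.069, edgeR adjusted p = 1.84e-06).

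The genes of the 3 sensors were all higher. ERN1, which encodes IRE1, had 97.3, 91.7 and 93.1 CPM in sh1-TUG1 and 159.5, 157 and 147 CPM in sh2-TUG1. EIF2AK3, which encodes PERK, had 65.3, 64.1 and 60.04 CPM in sh1-TUG1 and 91.95, 90.3 and 90.5 CPM in sh2-TUG1. ATF6 had 98.8, 96.3 and 89.8 CPM in sh1-TUG1 and 128, 134 and 137 CPM in sh2-TUG1. None of these overlapped, and the log2(fold change) values were 0.72 (edgeR adjusted p = 9.80e-07), 0.53 (edgeR adjusted p = 5.22e-06) and 0.48 (edgeR adjusted p = 1.63e-05). DNAJC3, which restrains PERK, rose by 0.48 (edgeR adjusted p = 0.000174). XBP1, the gene of a UPR factor, had 373, 367 and 356 CPM in sh1-TUG1, 422, 433 and 423 CPM in sh2-TUG1, and 299, 322 and 298 CPM in sh-Con, and rose by 0.22 (edgeR adjusted p = 0.00112). ATF6B, which overlaps TNXB on the same strand, was the member that fell, with −0.39 (edgeR adjusted p = 0.00271), and HSP90B1, CREB3L3, PPIB, OSTC, PDIA4 and SEC61G did not pass the test (log2(fold change) 0.012, −0.060, −0.10, 0.013, 0.064 and 0.21 in this order). Library medians over the control were −0.10, −0.13 and −0.12 in sh1-TUG1 and 0.19, 0.21 and 0.19 in sh2-TUG1. The list had a median level of 247 CPM, in the highest quintile of all genes, and its median relative to all genes was 0.26 with the trend on level removed.

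The ER stress response element, CCAAT followed after 9 bases by CCACG, was found on either strand before the start of 7 of 35 genes of the ER list (20.0%) and of 15 of all 9354 genes (0.160%). CCAAT alone, which is part of it, was found for 29 of the 35 (82.9%) and for 41.8% of all genes. It was also found for 76.1% of mitosis genes, 64.6% of replication genes and 62.5% of ATF4 targets. Complement factors had 52.9%, drug metabolism 38.5% and vesicle transport 35.9%, so CCAAT alone was not particular to the ER list. The 7 windows of 30 bases are shown because they are the letters through which these chaperone genes are known to respond together. They are from RefSeq on GRCh38.p14, along the gene, with both parts of the element in capitals, and in CALR and CRELD2 it reads on the opposite strand.
HSPA5, chr9:125241386-125241415, minus strand: ccttcaCCAATcggcggcctCCACGacggg
CANX, chr5:179698772-179698801, plus strand: tcccggCCAATcttcacactCCACGaagaa
CALR, chr19:12938378-12938407, plus strand: cccacgCGTGGtcgaccatcATTGGtcggt
XBP1, chr22:28800598-28800627, minus strand: cgctggCCAATcgcggagggCCACGaccgt
CRELD2, chr22:49918548-49918577, plus strand: acctctCGTGGcgaactcggATTGGgccat
PDIA6, chr2:10812848-10812877, minus strand: cccggaCCAATgagccgcagCCACGgcttg
HSP90B1, chr12:103930210-103930239, plus strand: ccctgaCCAATcggaaggagCCACGcttcg

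The 7 genes changed to different degrees. CANX, the membrane chaperone calnexin, rose by 0.37, CALR, its soluble relative calreticulin, by 0.26, CRELD2 by 0.14 and PDIA6, a disulfide isomerase, by 0.12 on the log2 scale, each with an edgeR adjusted p under 0.05. HSP90B1, with 3322 to 3441 CPM in sh1-TUG1 and 3328 to 3520.4 CPM in sh2-TUG1, had 0.012 (edgeR adjusted p = 0.836).

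**Figure D4:**
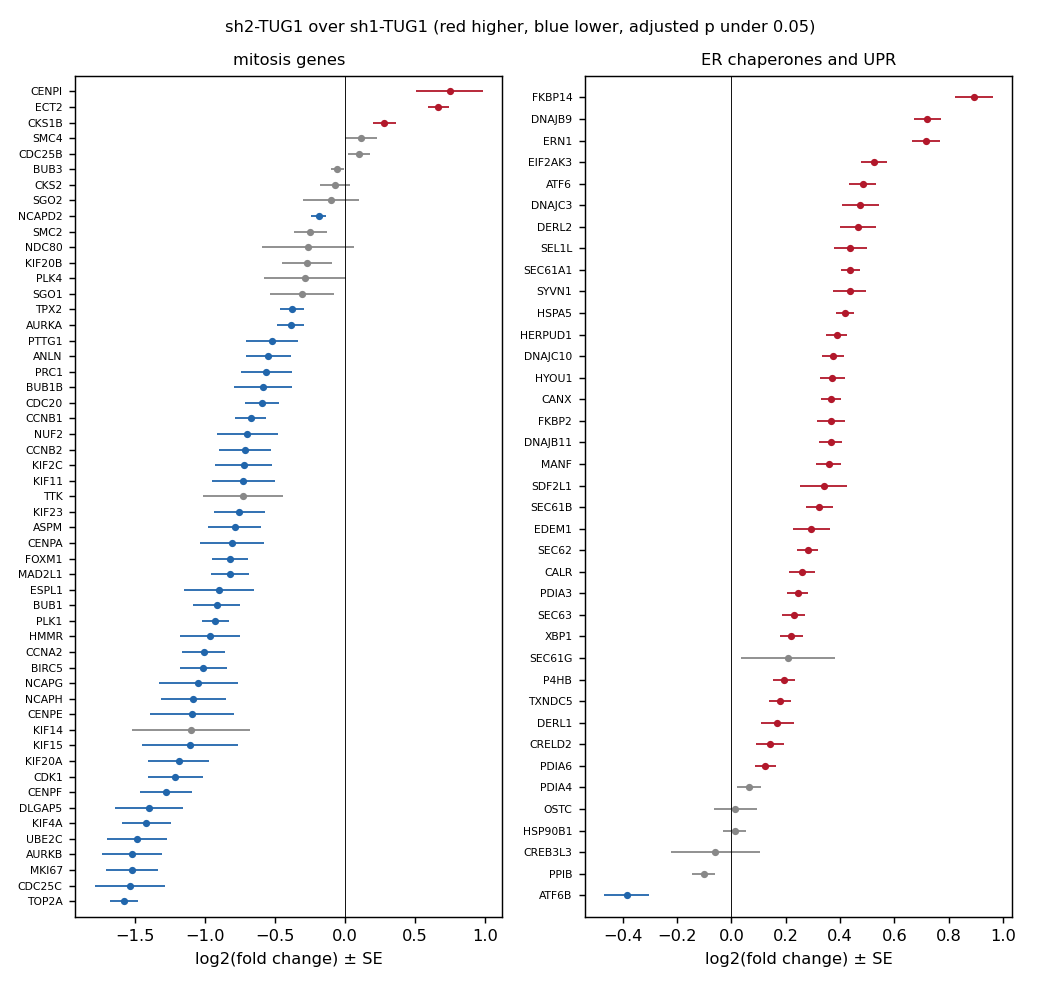
Members of the mitosis list (left) and of the ER list (right) by log2(fold change) of sh2-TUG1 over sh1-TUG1, with bars of 1 SE, red where higher and blue where lower at an adjusted p under 0.05. In the mitosis list 38 of 53 are lower and in the ER list 31 of 38 are higher, on axes of different range.

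Genes of vesicle transport between ER and Golgi were higher too, by less than the 1.5-fold limit of a DEG. Of 46 genes for COPI and COPII coats and Golgi proteins, 1 was lower and 30 higher at an adjusted p under 0.05, and 0 were lower and 0 higher as DEGs, with a median of 0.19 at a median level of 168 CPM. ARF4, the small GTPase of COPI vesicles, had 246, 256 and 247 CPM in sh1-TUG1, 379, 373 and 355 CPM in sh2-TUG1, and 303, 329.9 and 315 CPM in sh-Con. The groups were separate, with the control between (log2(fold change) 0.56, SE 0.044, edgeR adjusted p = 1.93e-06). MCFD2, a part of the cargo receptor for coagulation factors, had 683, 691 and 683 CPM in sh1-TUG1, 1041, 1006 and 987 CPM in sh2-TUG1, and 742, 766 and 735 CPM in sh-Con, in the same order (log2(fold change) 0.56, SE 0.036, edgeR adjusted p = 5.41e-07). SEC24D, a COPII coat protein, had 89.8, 87.9 and 94.5 CPM in sh1-TUG1 and 134, 130.1 and 116 CPM in sh2-TUG1, where sh1-TUG1 was the group below the control range of 122 to 128 CPM (log2(fold change) 0.48 with edgeR adjusted p = 3.89e-05). MIA3 and TMED9, which help export from the ER, rose by 0.40 and 0.36, and COPG2 fell with −0.51. With the trend on level removed, the list's median relative to all genes was 0.11.

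ATF4 targets were higher for part of the list. Of 41 members, 5 were lower and 22 higher at an adjusted p under 0.05, and 0 were lower and 4 higher as DEGs, with a median of 0.19. PPP1R15A, which reverses the translation block of the stress response, had 101, 107 and 101 CPM in sh1-TUG1, 179, 188 and 177 CPM in sh2-TUG1, and 142, 121 and 121 CPM in sh-Con. Its 3 groups were separate (log2(fold change) 0.82, SE 0.063, edgeR adjusted p = 1.85e-06). ATF3, a stress-induced repressor, had 43.6, 46.6 and 47.8 CPM in sh1-TUG1, 83.5, 82.3 and 72.8 CPM in sh2-TUG1, and 49.9, 55.2 and 55.9 CPM in sh-Con, again with the control between (log2(fold change) 0.79, SE 0.068, edgeR adjusted p = 4.15e-06). SLC3A2, a subunit of amino acid transporters, had 1216, 1203 and 1256 CPM in sh1-TUG1 and 1906, 1923 and 1696 CPM in sh2-TUG1. SLC38A2, which takes up glutamine and other neutral amino acids, had 1838, 1772 and 1759.8 CPM in sh1-TUG1 and 2779, 2768 and 2536 CPM in sh2-TUG1. Neither overlapped (log2(fold change) 0.59 with edgeR adjusted p = 6.59e-06 and 0.59 with edgeR adjusted p = 6.21e-05). TRIB3 rose by 0.40, and PHGDH, the first enzyme of serine synthesis, fell with −0.52 (edgeR adjusted p = 1.74e-06). The list had a median level of 295 CPM, and its median relative to all genes was 0.10 with the trend on level removed.

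Immediate-early genes, which answer growth signals and stress early, had a median above the control in sh2-TUG1 and below it in sh1-TUG1. Of 41 members, 3 were lower and 23 higher at an adjusted p under 0.05, and 1 was lower and 9 higher as DEGs, with 21.95% of the list higher DEGs against 2.56% of all genes. The median was 0.25. DUSP1, a phosphatase that ends MAP kinase signals, had 45.7, 47.6 and 44.5 CPM in sh1-TUG1, 88.9, 88.5 and 86.8 CPM in sh2-TUG1, and 54.6, 55.1 and 56.8 CPM in sh-Con. EGR1, an early transcription factor, had 44.3, 43.4 and 42.8 CPM in sh1-TUG1, 74.9, 80.6 and 77.6 CPM in sh2-TUG1, and 56.9, 46.5 and 49.99 CPM in sh-Con. Both were without overlap among the 3 groups (log2(fold change) 0.94 with edgeR adjusted p = 1.72e-07 and 0.84 with edgeR adjusted p = 3.13e-06). KLF4 had 8.14, 7.91 and 8.75 CPM in sh1-TUG1, 16.98, 19.04 and 18.7 CPM in sh2-TUG1, and 5.74, 6.59 and 6.43 CPM in sh-Con, above the control in both hairpins (log2(fold change) 1.14, SE 0.097, edgeR adjusted p = 3.73e-06). DUSP5 fell with −0.84 (edgeR adjusted p = 0.000224). RHOB, the member with the most reads, rose by 0.38. Library medians over the control were −0.17, −0.18 and −0.15 in sh1-TUG1 and 0.12, 0.17 and 0.16 in sh2-TUG1, and the median relative to all genes was 0.28 with the trend on level removed.

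In the list of NRF2 targets and AKR1 enzymes the largest rises were in aldo-keto reductases. Of 29 members, 6 were lower and 16 higher at an adjusted p under 0.05, and 2 were lower and 4 higher as DEGs, with a median of 0.29. Its library medians over the control were −0.021, −0.030 and −0.00048 in sh1-TUG1 and 0.055, 0.21 and 0.043 in sh2-TUG1. The sh-Con libraries had −0.025, 0.036 and 0.028. AKR1B1, which reduces glucose to sorbitol, had 93.7, 90.9 and 99.1 CPM in sh1-TUG1, 204, 200.2 and 186 CPM in sh2-TUG1, and 48.7, 47.6 and 49.9 CPM in sh-Con. AKR1C2, which reduces steroid hormones, had 338, 332 and 331 CPM in sh1-TUG1 and 649, 684 and 627 CPM in sh2-TUG1. Its paralog AKR1C1 had 2333, 2344 and 2416 CPM in sh1-TUG1 and 4084, 4130.3 and 3769 CPM in sh2-TUG1. In all 3 genes sh2-TUG1 was highest and the control lowest, without overlap, and the log2(fold change) values were 1.06 (edgeR adjusted p = 1.06e-07), 0.97 (edgeR adjusted p = 8.48e-08) and 0.76 (edgeR adjusted p = 5.61e-07). The AKR1C genes are close paralogs, so their reads may be divided uncertainly. The NRF2 target NQO1 was lower, with −0.15 (edgeR adjusted p = 0.012), and so were AKR7A2 and ABCC3, with −0.71 and −0.59.

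The lists of liver secretion had medians below 0. Of 23 complement factors, 17 were lower and 1 higher at an adjusted p under 0.05, and 9 were lower and 0 higher as DEGs, with a median of −0.50 at a median level of 67.04 CPM, in the fourth quintile, whose median was 0.048. C1S, the protease of the classical pathway, had 19.9, 22.01 and 18.4 CPM in sh1-TUG1, 7.01, 7.99 and 8.63 CPM in sh2-TUG1, and 11.8, 11.6 and 11.4 CPM in sh-Con, with the control between the hairpins, although it overlaps EMG1 on the same strand (log2(fold change) −1.35, SE 0.10, edgeR adjusted p = 1.51e-06). MBL2, the mannose-binding lectin, had 5.45, 5.71 and 4.85 CPM in sh1-TUG1, 1.54, 2.04 and 2.85 CPM in sh2-TUG1, and 5.77, 7.84 and 7.31 CPM in sh-Con, below the control in both hairpins (log2(fold change) −1.31, SE 0.22, edgeR adjusted p = 0.000554). C8G, CFD and CFI fell by log2(fold change) −1.24 (edgeR adjusted p = 0.000496), −1.20 (edgeR adjusted p = 0.00128) and −0.93 (edgeR adjusted p = 0.0028). C3, the complement factor with the most reads, had 2819, 2798 and 2769 CPM in sh1-TUG1 and 2170.000, 2129 and 2204 CPM in sh2-TUG1, a small fall without overlap (log2(fold change) −0.37, SE 0.041, edgeR adjusted p = 2.82e-05). C3 overlaps GPR108 on the same strand.

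Plasma carriers and protease inhibitors were divided. Of 28 members, 15 were lower and 6 higher at an adjusted p under 0.05, and 9 were lower and 0 higher as DEGs, with a median of −0.34. TTR (transthyretin) and SERPINA7 carry thyroid hormones in blood, and SERPINA6 carries glucocorticoids. TTR had 183, 187 and 189.7 CPM in sh1-TUG1, 67.6, 71.2 and 91.4 CPM in sh2-TUG1, and 149.6, 125 and 131 CPM in sh-Con. SERPINA6 had 104, 110.2 and 100.3 CPM in sh1-TUG1, 39.3, 43.3 and 49.5 CPM in sh2-TUG1, and 88.4, 82.1 and 79.9 CPM in sh-Con. SERPINA7 had 55.6, 48.1 and 57.4 CPM in sh1-TUG1, 21.2, 20.3 and 27.6 CPM in sh2-TUG1, and 23.2, 22.1 and 31.2 CPM in sh-Con. The hairpins did not overlap in any of these, and sh1-TUG1 was above the control in all 3 (log2(fold change) −1.28 with edgeR adjusted p = 1.94e-06, −1.25 with edgeR adjusted p = 4.96e-07 and −1.22 with edgeR adjusted p = 3.48e-05). CPB2 and HPX fell with −1.19 and −1.11, and SERPINA3 with −0.81. ALB, the member with the most reads, went the other way, with 18306, 17839 and 19227 CPM in sh1-TUG1, 25377, 25384 and 25399 CPM in sh2-TUG1, and 12780.000, 13243 and 14493 CPM in sh-Con, so that both hairpins lay above the control and sh2-TUG1 highest (log2(fold change) 0.46, SE 0.045, edgeR adjusted p = 1.24e-05). The third sh2-TUG1 library was nearer the control than its replicates, with list medians of −0.27, −0.25 and 0.042, and without it the median relative to all genes was −0.44, against −0.34 with it. Acute-phase and iron proteins moved from −0.21 to −0.46 and coagulation factors from −0.18 to −0.36 in the same way, and the former to −0.13 or −0.11 without sh2-TUG1 replicate 1 or 2.

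Apolipoproteins and lipoprotein enzymes had a median below 0. Of 25 members, 18 were lower and 1 higher at an adjusted p under 0.05, and 7 were lower and 0 higher as DEGs, with a median of −0.35 at 71.3 CPM. LIPC, the hepatic lipase, had 16.6, 17.8 and 17.6 CPM in sh1-TUG1, 9.32, 8.68 and 7.52 CPM in sh2-TUG1, and 15.7, 15.1 and 15.6 CPM in sh-Con, with sh1-TUG1 above and sh2-TUG1 below the control (log2(fold change) −1.03, SE 0.092, edgeR adjusted p = 5.12e-06). PLTP, which moves phospholipids between lipoproteins, had 26.1, 24.02 and 30.5 CPM in sh1-TUG1 and 11.9, 12.1 and 15.5 CPM in sh2-TUG1. APOC3, which slows triglyceride clearance, had 36.7, 40.1 and 47.2 CPM in sh1-TUG1 and 20.7, 20.9 and 27.9 CPM in sh2-TUG1. Neither overlapped (log2(fold change) −1.02 with edgeR adjusted p = 4.85e-05 and −0.83 with edgeR adjusted p = 0.000208). APOA5 fell with −0.71 and APOL3 with −1.28 (edgeR adjusted p = 0.00671). APOB, the structural protein of very low density lipoprotein, had the most reads, with 7394, 7228 and 7358 CPM in sh1-TUG1 and 5690.3, 5679.5 and 6659 CPM in sh2-TUG1. It was lower in sh2-TUG1 with −0.29 (edgeR adjusted p = 0.00151), and the control, at 6002 to 6349.6 CPM, overlapped sh2-TUG1. The library medians of this list were −0.074, 0.024 and −0.020 in sh1-TUG1 and −0.64, −0.54 and −0.38 in sh2-TUG1. Hepatocyte transcription factors had a median of −0.013 over 29 members, 8 of them lower and 4 higher at an adjusted p under 0.05. HNF4A, their central member, was lower by a small step, −0.18 (edgeR adjusted p = 0.00305), and CEBPA had 0.071 (edgeR adjusted p = 0.338).

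The lists of liver metabolism also had medians below 0. Of 40 genes for amino acid catabolism and the urea cycle, 22 were lower and 5 higher at an adjusted p under 0.05, and 12 were lower and 1 higher as DEGs, with a median of −0.31 at 47.01 CPM. FTCD, which breaks down histidine (chr21:46136262-46155567), had 39.4, 38.8 and 39.8 CPM in sh1-TUG1, 14.4, 15.2 and 15.5 CPM in sh2-TUG1, and 29.5, 33.3 and 30.7 CPM in sh-Con, with the control between the hairpins (log2(fold change) −1.39, SE 0.062, edgeR adjusted p = 7.65e-08). HPD and FAH act in tyrosine breakdown. HPD had 153, 145 and 218 CPM in sh1-TUG1, 48.1, 39.1 and 99.5 CPM in sh2-TUG1, and 229, 187 and 273 CPM in sh-Con, with wide spread in sh2-TUG1 but no overlap between the hairpins (log2(fold change) −1.46, SE 0.29, edgeR adjusted p = 0.00169). FAH had 49.5, 51.2 and 47.6 CPM in sh1-TUG1 and 25.7, 26.5 and 24.2 CPM in sh2-TUG1, where sh1-TUG1 was close to the control of 51.3 to 54.97 CPM (log2(fold change) −0.96, SE 0.056, edgeR adjusted p = 3.60e-07). HAAO, of tryptophan breakdown, fell with −1.33 (edgeR adjusted p = 0.000272). GLUL, the member with the most reads, had 438 to 461 CPM in sh1-TUG1 and 449.7 to 454 CPM in sh2-TUG1 (log2(fold change) −0.0049 with edgeR adjusted p = 0.927).

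Of 37 genes for drug metabolism, 24 were lower and 6 higher at an adjusted p under 0.05, and 14 were lower and 3 higher as DEGs, with a median of −0.47 at 23.1 CPM. SULT1A1, a sulfotransferase for phenols, had 119.6, 122 and 124 CPM in sh1-TUG1, 53.9, 53.8 and 67.7 CPM in sh2-TUG1, and 105, 96.4 and 94.4 CPM in sh-Con, with the control between (log2(fold change) −1.06, SE 0.081, edgeR adjusted p = 1.78e-06). Its paralog SULT1A2 fell by 0.99 on the log2 scale, and their reads may be divided uncertainly. CYP4F3, which inactivates leukotrienes, had 20.3, 18.7 and 21.3 CPM in sh1-TUG1 and 7.88, 9.19 and 8.76 CPM in sh2-TUG1. EPHX2, the soluble epoxide hydrolase, had 9.93, 10.4 and 9.39 CPM in sh1-TUG1 and 4.65, 3.86 and 4.198 CPM in sh2-TUG1. GSTA1, a glutathione transferase, had 7.09, 6.54 and 8.41 CPM in sh1-TUG1 and 2.74, 2.42 and 3.24 CPM in sh2-TUG1. None of the 3 overlapped, and the log2(fold change) was −1.22 (edgeR adjusted p = 1.85e-06), −1.22 (edgeR adjusted p = 1.75e-05) and −1.39 (edgeR adjusted p = 6.22e-05). CYP3A7, the fetal cytochrome, was higher, with 18.2, 16.5 and 18.8 CPM in sh1-TUG1, 30.9, 31.5 and 32.4 CPM in sh2-TUG1, and 7.72, 6.59 and 9.62 CPM in sh-Con (log2(fold change) 0.83, SE 0.11, edgeR adjusted p = 8.82e-05), and POR, which passes electrons to the cytochromes P450, rose by 0.27.

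In the bile acid list 52.9% of members were lower and 23.5% higher at an adjusted p under 0.05, against 21.7% and 21.0% of all genes. Of 17 members, 9 were lower and 4 higher at an adjusted p under 0.05, and 3 were lower and 2 higher as DEGs, with a median of −0.31. SLC51A and SLC51B encode the subunits of the same bile acid exporter. SLC51A had 6.03, 4.77 and 6.05 CPM in sh1-TUG1, 1.11, 1.56 and 1.996 CPM in sh2-TUG1, and 15.04, 17.2 and 14.2 CPM in sh-Con, below the control in both hairpins and lowest in sh2-TUG1 (log2(fold change) −1.84, SE 0.19, edgeR adjusted p = 2.01e-05). SLC51B had 13.3, 15.6 and 12.2 CPM in sh1-TUG1 and 19.8, 18.7 and 23.6 CPM in sh2-TUG1, in the opposite direction and without overlap (log2(fold change) 0.60, SE 0.14, edgeR adjusted p = 0.00583). SLC27A5 and BAAT, which act in turn to conjugate bile acids, also parted, the log2(fold change) being −1.13 (edgeR adjusted p = 3.86e-05) and 0.73 (edgeR adjusted p = 0.000353). AMACR and CYP27A1 fell with −0.62 and −0.57, and ABCC2, the member with the most reads, rose by 0.18.

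Metallothioneins, which bind zinc and copper, were lower in sh2-TUG1. Of 13 genes for metallothioneins and zinc transport, 8 were lower and 1 higher at an adjusted p under 0.05, and 6 were lower and 0 higher as DEGs, with a median of −0.52 at 20.02 CPM. MT2A had 65.5, 64.9 and 74.4 CPM in sh1-TUG1, 37.2, 31.6 and 39.6 CPM in sh2-TUG1, and 167, 119 and 127 CPM in sh-Con. Both hairpins were below the control and sh2-TUG1 lowest (log2(fold change) −0.92, SE 0.12, edgeR adjusted p = 0.000113). MT1E had the same order, with 18.6, 17.5 and 19.4 CPM in sh1-TUG1, 9.11, 9.34 and 9.93 CPM in sh2-TUG1, and 38.8, 27.8 and 29.7 CPM in sh-Con (log2(fold change) −0.97, SE 0.12, edgeR adjusted p = 5.34e-05). MT1G and MT1F fell with −0.95 (edgeR adjusted p = 0.00189) and −0.88 (edgeR adjusted p = 0.00218), and the family's sequences are alike enough for reads to be shared. The zinc importers SLC39A4 and SLC39A5 also fell. SLC39A4 had 108, 119.7 and 118 CPM in sh1-TUG1, 61.6, 66.5 and 59.2 CPM in sh2-TUG1, and 78.8, 77.1 and 73.9 CPM in sh-Con, with the control between the hairpins (log2(fold change) −0.89, SE 0.058, edgeR adjusted p = 6.24e-07), and SLC39A5 had −0.68 (edgeR adjusted p = 6.79e-06). SLC30A1, which exports zinc, had 113 to 125 CPM in sh1-TUG1 and 128 to 140.2 CPM in sh2-TUG1 (log2(fold change) 0.17 with edgeR adjusted p = 0.119). Without sh2-TUG1 replicate 3 the list's median relative to all genes was −0.61, against −0.52 with it.

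Lists of carbohydrate genes, the subject of the study, had medians below 0. Of 16 genes for glucose and lactate transport, 6 were lower and 2 higher at an adjusted p under 0.05, and 5 were lower and 0 higher as DEGs, with a median of −0.15, or −0.079 relative to all genes without sh2-TUG1 replicate 3. SLC2A3, which encodes the high-affinity glucose transporter GLUT3 (chr12:7919230-7936275), had 123, 123 and 119 CPM in sh1-TUG1, 33.5, 31.2 and 38.1 CPM in sh2-TUG1, and 320.1, 353 and 326 CPM in sh-Con. All 3 groups were separate, and both hairpins were below the control (log2(fold change) −1.83, SE 0.068, edgeR adjusted p = 5.34e-08). Its close paralog SLC2A14, with 12.2, 12.5 and 14.03 CPM in sh1-TUG1 and 7.75, 7.39 and 8.06 CPM in sh2-TUG1, had −0.74 (edgeR adjusted p = 5.22e-05), and reads of the pair may be divided uncertainly. SLC2A2, the glucose transporter of hepatocytes, had 38.5, 33.98 and 36.03 CPM in sh1-TUG1, 25.8, 24.6 and 21.3 CPM in sh2-TUG1, and 15.7, 15.5 and 18.2 CPM in sh-Con, so that both hairpins were above the control and sh1-TUG1 highest (log2(fold change) −0.60, SE 0.086, edgeR adjusted p = 0.000201). SLC5A9 and SLC2A9 fell with −1.64 (edgeR adjusted p = 1.55e-06) and −0.77 (edgeR adjusted p = 1.71e-05), SLC2A6 rose by 0.28, and SLC2A1, which encodes GLUT1 and had the most reads, had 745 to 765 CPM in sh1-TUG1, 806 to 821 CPM in sh2-TUG1 and 1138 to 1254 CPM in sh-Con. Its difference between the hairpins, 0.11 (edgeR adjusted p = 0.0479), passed by little, and leaving out any of the 6 hairpin libraries put the adjusted p at 0.0808 to 0.128. Of 22 genes for gluconeogenesis and glycogen, 12 were lower (54.5%) and 2 higher at an adjusted p under 0.05. As DEGs 4 were lower and 1 higher, with a median of −0.25, and the pentose phosphate pathway had −0.038 over 11 genes. Of 21 glycolytic enzymes, 11 were lower (52.4%, against 21.7% of all genes) and 2 higher at an adjusted p under 0.05. As DEGs 3 were lower and 0 higher, with a median of −0.22. The 3 DEGs were PKLR (log2(fold change) −1.35, edgeR adjusted p = 0.000361), PFKM (−0.70, edgeR adjusted p = 0.0138) and PFKL. The 2 higher members were PFKP (0.46, edgeR adjusted p = 0.0328) and PKM (0.12, edgeR adjusted p = 0.0305). PFKL, the liver phosphofructokinase, was lower in sh2-TUG1 at 131, 129.9 and 126 CPM in sh1-TUG1 and 87.1, 82.3 and 87.9 CPM in sh2-TUG1 (log2(fold change) −0.59, SE 0.045, edgeR adjusted p = 1.86e-06). LDHA and ALDOA had −0.036 (edgeR adjusted p = 0.515) and 0.039 (edgeR adjusted p = 0.452), and the control lay above both hairpins, at 1653 to 1805 CPM and 2089.6 to 2278 CPM in sh-Con. Hypoxia genes outside glycolysis, 32 in number, had a median of −0.076 between the hairpins and library medians over the control of −0.63, −0.79 and −0.64 in sh1-TUG1 and −0.78, −0.76 and −0.79 in sh2-TUG1.

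The lists of matrix genes had medians below 0. Of 37 collagens and matrix proteins, 17 were lower and 4 higher at an adjusted p under 0.05, and 11 were lower and 1 higher as DEGs, with a median of −0.19. MATN3, a cartilage matrilin, had 101, 95.8 and 92.3 CPM in sh1-TUG1, 44.3, 46.3 and 35.97 CPM in sh2-TUG1, and 142, 168 and 162 CPM in sh-Con, below the control in both hairpins (log2(fold change) −1.19, SE 0.090, edgeR adjusted p = 1.58e-06). LAMA5, a laminin chain of basement membranes, had 165, 175 and 173 CPM in sh1-TUG1, 84.2, 81.5 and 91.5 CPM in sh2-TUG1, and 114, 100.2 and 107 CPM in sh-Con, with the control between (log2(fold change) −0.996, SE 0.059, edgeR adjusted p = 3.60e-07). COL9A2, COL2A1 and HSPG2 fell by log2(fold change) −1.39 (edgeR adjusted p = 9.20e-07), −1.21 (edgeR adjusted p = 4.96e-07) and −1.05 (edgeR adjusted p = 4.29e-07), and FN1, with the most reads, rose by 0.20 (edgeR adjusted p = 0.00182). Of 25 matrix proteases and inhibitors, 13 were lower and 4 higher at an adjusted p under 0.05, and 8 were lower and 2 higher as DEGs, with a median of −0.25. MMP11 had 17.7, 16.4 and 16.2 CPM in sh1-TUG1, 6.55, 5.298 and 4.25 CPM in sh2-TUG1, and 10.3, 9.91 and 11.6 CPM in sh-Con, again with the control between (log2(fold change) −1.65, SE 0.14, edgeR adjusted p = 3.79e-06). ADAM19, PLAU and ADAMTS13 fell with −0.98 (edgeR adjusted p = 0.00438), −0.97 (edgeR adjusted p = 0.00664) and −0.99 (edgeR adjusted p = 0.00787). Of 39 genes of TGF-beta and BMP signalling, 9 were lower (23.1%) and 13 higher (33.3%) at an adjusted p under 0.05. The shares of all genes were 21.7% and 21.0%. As DEGs 5 were lower (12.8%) and 3 higher (7.69%), against 8.04% and 2.56% of all genes. The list's median was 0.068, or 0.0034 with the trend on level removed. TGFBR2, a TGF-beta receptor, had 348, 336 and 327 CPM in sh1-TUG1 and 538, 517 and 519.7 CPM in sh2-TUG1. ID1, a BMP target, had 105, 101 and 101 CPM in sh1-TUG1 and 65.4, 67.1 and 59.2 CPM in sh2-TUG1. Neither overlapped (log2(fold change) 0.64 with edgeR adjusted p = 4.82e-07 and −0.68 with edgeR adjusted p = 1.90e-06).

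In the lipid droplet list 25.9% of members were lower and 29.6% higher at an adjusted p under 0.05, against 21.7% and 21.0% of all genes. Of 27 genes, 7 were lower and 8 higher at an adjusted p under 0.05, and 4 were lower and 3 higher as DEGs, with a median of 0.012, which took values from −0.12 to 0.015 relative to all genes as single libraries were left out. PLIN2, the coat protein of lipid droplets (chr9:19108375-19149290), had 416, 423 and 405 CPM in sh1-TUG1, 803, 803 and 779.7 CPM in sh2-TUG1, and 735, 751 and 721 CPM in sh-Con. The groups were separate, with sh1-TUG1 far below and sh2-TUG1 slightly above the control (log2(fold change) 0.94, SE 0.036, edgeR adjusted p = 5.34e-08). GPAT3, of triglyceride synthesis, had 37.5, 34.4 and 35.5 CPM in sh1-TUG1, 63.4, 65.5 and 65.5 CPM in sh2-TUG1, and 70.01, 78.03 and 73.3 CPM in sh-Con, lowest in sh1-TUG1 (log2(fold change) 0.86, SE 0.056, edgeR adjusted p = 6.33e-07). GPD1, which makes glycerol phosphate, had 23.5, 24.96 and 22.7 CPM in sh1-TUG1 and 10.2, 10.9 and 10.5 CPM in sh2-TUG1. MOGAT2, which makes diglyceride, had 15.6, 15.6 and 16.1 CPM in sh1-TUG1 and 7.94, 7.33 and 7.96 CPM in sh2-TUG1. Both fell without overlap (log2(fold change) −1.17 with edgeR adjusted p = 2.88e-07 and −1.02 with edgeR adjusted p = 3.07e-06). AQP3, the glycerol channel described above, is also in this list.

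The lists of chromatin and zinc-finger genes had medians above 0 and few DEGs. Of 68 polycomb and chromatin modifiers, 4 were lower and 29 higher at an adjusted p under 0.05, and 1 was lower and 1 higher as DEGs, with a median of 0.14. KDM6A, a histone demethylase, had 35.8, 39.2 and 37.99 CPM in sh1-TUG1 and 63.03, 58.6 and 59.6 CPM in sh2-TUG1 (log2(fold change) 0.68, SE 0.058, edgeR adjusted p = 3.74e-06), and CHD9, PHF1, CHD1 and NSD3 rose by 0.52, 0.50, 0.45 and 0.44, all without overlap. TET1, a DNA demethylase, was lower, with −0.99 (edgeR adjusted p = 0.00651), and CHD4, with the most reads, had −0.0079 (edgeR adjusted p = 0.911). Of 401 genes named ZNF, 20 were lower and 99 higher at an adjusted p under 0.05, and 11 were lower and 11 higher as DEGs, which is 24.7% higher and 4.99% lower against 21.0% and 21.7% of all genes. Their median was 0.16 at a level of 8.48 CPM, in a quintile whose median was −0.081, and with the trend on level removed it was 0.22 relative to all genes. ZNF75A and ZNF839 had log2(fold change) values of 0.95 (edgeR adjusted p = 0.00293) and −0.95 (edgeR adjusted p = 0.00235). ZNF664, with the most reads, had 201, 201 and 198 CPM in sh1-TUG1 and 252, 254 and 249 CPM in sh2-TUG1, without overlap (log2(fold change) 0.33, SE 0.036, edgeR adjusted p = 2.81e-05). Many ZNF genes are paralogs, so single members are less certain than the count.

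Among the remaining lists, several had medians near 0. Cytosolic ribosomal proteins had a median of −0.059 (86 genes, 0 DEGs, with 5 lower and 8 higher at an edgeR adjusted p under 0.05), proteasome subunits of −0.0050 (49 genes), fatty acid synthesis of −0.0044 (21 genes), the interferon response of −0.031 (36 genes) and cytosolic heat-shock proteins, which unlike the ER chaperones serve the cytosol, of 0.071 (39 genes, 10 higher and 2 lower). Nuclear genes of complex I and of complexes III, IV and V were shifted down with medians of −0.19 and −0.21, with 17 of 38 and 19 of 36 genes lower, and fatty acid oxidation with −0.28 (19 of 31 lower). The 13 mitochondrially encoded transcripts had a median of 0.13, with 1 higher, or 0.056 without sh2-TUG1 replicate 3. Chromosome medians lay between −0.052 (chromosome 22) and 0.061 (chromosome 18) apart from the mitochondrial chromosome.

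The position of the control differed between the lists. In 10 of the lists described at length (13 of all 61 lists), all sh1-TUG1 libraries lay on 1 side of all sh-Con libraries and all sh2-TUG1 libraries on the other: mitosis, DNA replication, complement, drug metabolism and amino acid catabolism, with sh1-TUG1 above, and ER chaperones, vesicle transport, ATF4 targets, immediate-early genes and ZNF genes, with sh1-TUG1 below. Complement factors had library medians over the control of 0.16, 0.23 and 0.24 in sh1-TUG1 and −0.31, −0.24 and −0.12 in sh2-TUG1, and drug metabolism 0.17, 0.12 and 0.16 and −0.40, −0.39 and −0.19. For apolipoproteins, metallothioneins and zinc transport, collagens and glucose transport the list medians lay near the control in sh1-TUG1 and below it in sh2-TUG1. They were −0.019, −0.049 and 0.039 and −0.63, −0.65 and −0.37 for the list of metallothioneins and zinc transport. Single members departed from these medians. In sh1-TUG1, MT2A and SLC2A3 were below the control, and SLC39A4 and SLC2A2 were above it. For histones the libraries of both hairpins lay above the control. These positions were not tested, since both hairpins share the control libraries.

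**Figure D5:**
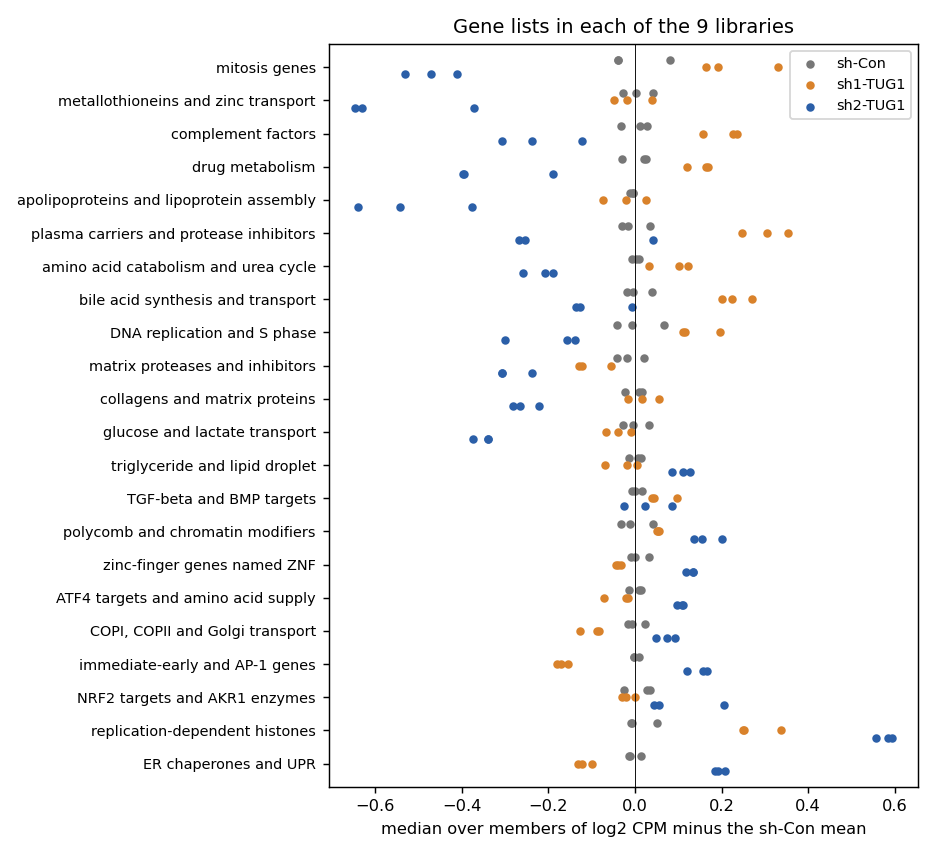
Median over the members of each list of log2 CPM minus the sh-Con mean, with a point for each of the 9 libraries coloured by group. The sh1-TUG1 and sh2-TUG1 points lie on opposite sides of the sh-Con points for mitosis genes (0.16 to 0.33 and −0.53 to −0.41) and for ER chaperones (−0.13 to −0.10 and 0.19 to 0.21).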

How the data were processed

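RNA-seq libraries of HepG2 cells were sequenced for 3 groups with 3 replicates each. The authors deposited a table for each hairpin with counts per gene, FPKM values and their own comparison with sh-Con (log2(fold change) and FDR), and the same sh-Con counts stand in both. The deposited count columns alone were used here. The FPKM columns that the authors deposited beside them are normalized for length and depth and were not used in any test, and the FDR and log2(fold change) columns were left out. GRCh38, HISAT2 and StringTie are named in the submitters' processing notes. The counting tool, its use of strand and its annotation were not given in the sources used here. All 12854 genes present in both tables reached at least 1 CPM in 3 or more of the 9 libraries, and 163 and 99 genes present in only the first or second table were left out, so genes near the limit of detection are missing.

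Counts were joined on the gene identifier, and 11808 Ensembl identifiers were named and placed by GENCODE 29 on GRCh38, while 1046 further loci, 1.44% of counts, have no gene name and enter only the totals. Counts were scaled by TMM and fitted for all 9 libraries together with edgeR 4.0.16 (R 4.3.3, limma 3.58.1) using the quasi-likelihood test, with the contrast sh2-TUG1 minus sh1-TUG1 and p-values adjusted by Benjamini–Hochberg over all 12854 genes. No gene was removed by the edgeR filter on low counts. DEGs were genes with an adjusted p under 0.05 together with a change above 1.5-fold, log2 values were computed with a prior count of 2, and the script was tested on simulated data. Levels are CPM, which are not corrected for gene length. The common biological coefficient of variation was 9.02%.

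The members and gene lists were chosen with earlier results of these data known. Named genes were the 12 largest rises and the 12 largest falls among DEGs with an Ensembl identifier, at least 50 counts on average over the hairpin libraries and no overlap between the hairpins, then up to 6 called members with the largest change and the member with the most reads in each list described at length. Those lists had the 8 lowest or 8 highest medians, or more than 3 times the share of DEGs of all genes. XBP1, CALR, CANX, CRELD2, PDIA6, DLGAP5, HSP90B1, ATF6B, the other ER members that did not pass, NQO1, HNF4A, CEBPA, CYP3A7 and the glycolytic enzymes were named beyond this rule after their values were seen. Alternatives were DESeq2 1.42.0, other scaling and filters, the 6 hairpin libraries alone, a test against the 1.5-fold limit, a replicate block, the omission of each library, and offsets for trends on level and GC content, the last 2 chosen after seeing the data. Promoters were taken from RefSeq (GRCh38.p14). TUG1 is not analysed here, and a few genes that the rule would name are not reported here.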

Additional observations from a re-analysis of the deposited data

Results flagged for a closer look

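In 12 of the genes named for the largest changes, and in 10 of the gene lists described at length (13 of all 61 lists), every sh1-TUG1 library lay on 1 side of all sh-Con libraries and every sh2-TUG1 library on the other. The same held for 206 of the 1033 lower and 72 of the 329 higher DEGs, and the share over all genes was not counted. The genes named were chosen among those without overlap between the hairpins, and the lists mainly for extreme medians, which favours opposite sides. The direct contrast of the hairpins was tested for each gene, while the list differences were not tested.

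On the log2 scale HP had −2.75, CAPN3 −2.65, HPR −2.47, MAB21L4 −2.33, DIO1 −2.23, DPEP1 −2.05 and AGXT −1.96, with sh1-TUG1 above and sh2-TUG1 below the control. THSD4 had 1.66, RGCC 1.56, AQP3 1.45, NLRC4 1.40 and PLEKHH2 1.39, with sh1-TUG1 below and sh2-TUG1 above it. CAPN3 overlaps AC012651.1 on the same strand and HPR is a paralog of HP, so both are uncertain.

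Of the lists described at length, those on opposite sides, with medians between the hairpins, were mitosis genes (−0.73), complement factors (−0.50), drug metabolism (−0.47), amino acid catabolism (−0.31) and DNA replication (−0.30), where sh1-TUG1 was above the control. ZNF genes (0.16), ATF4 targets (0.19), vesicle transport (0.19), immediate-early genes (0.25) and ER chaperones (0.33) had sh1-TUG1 below it.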

How the results depend on the processing

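Of the 179 genes named by the rule, none changed sign under the 19 alternatives run for genes while passing in the main setting or that alternative. Sign changes of genes that passed in neither were not counted, and genes named beyond the rule were not followed. DESeq2 gave 336 higher and 1043 lower DEGs, and a test of the fold change against 1.5 gave 67 and 263. By adjusted p alone 2862 genes were higher and 2697 lower with the trend on GC content removed, against 2702 and 2786. Leaving out single libraries gave 301 to 337 higher and 916 to 1046 lower DEGs. Of 174 called genes named by the rule, 11 lost their call without some library (among them AKR1C4, BHMT, CETP, CIDEC, FOS, MMP3, SLC2A1, TAGLN, ZNF280A and ZNF699), and 3 more passed in some alternative (GLUL and SLC30A1 among them). Deviations of same-numbered libraries of different groups correlated between −0.30 and 0.015, and those of differently numbered ones between −0.108 and 0.187. A pairing by replicate number was therefore not seen, and a pairing in another order was not tested. With a replicate block 314 DEGs were higher and 986 lower, and the median of matrix proteases was −0.30 relative to all genes.

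The following medians are relative to that of all genes. With the trend on level removed they were 0.10 for ATF4 targets, 0.11 for vesicle transport, 0.26 for ER chaperones, 0.19 for NRF2 targets, 0.0034 for TGF-beta, 0.28 for immediate-early genes, −0.29 for matrix proteases, −0.59 for mitosis, 0.10 for chromatin modifiers, 0.47 for histones, −0.055 for lipid droplets and 0.22 for ZNF genes. With the trend on GC content removed they were 0.17 for vesicle transport, 0.29 for ER chaperones, −0.0057 for TGF-beta, −0.23 for amino acid catabolism, −0.14 for collagens, −0.10 for glucose transport, 0.30 for immediate-early genes, 0.39 for histones, −0.039 for lipid droplets and 0.12 for ZNF genes. With single libraries left out, ATF4 targets ranged from 0.16 to 0.21, ER chaperones from 0.30 to 0.36, amino acid catabolism from −0.39 to −0.30, bile acids from −0.34 to −0.25, collagens from −0.22 to −0.14, glucose transport from −0.18 to −0.079, immediate-early genes from 0.25 to 0.29, matrix proteases from −0.33 to −0.25, metallothioneins from −0.61 to −0.49, histones from 0.31 to 0.51, lipid droplets from −0.12 to 0.015 and ZNF genes from 0.14 to 0.16. Of the lists described at length, lipid droplets and TGF-beta changed sign. Of the others given, hepatocyte transcription factors, ribosomal proteins, proteasome, fatty acid synthesis, interferon response and cytosolic heat-shock proteins did, and the causes of these shifts were not tested. The SEs, and the ranges with single libraries left out, reflect only the spread between these 3 libraries a group. Genes read at a few CPM carry the largest errors.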
